A study of Homo sapiens with 4 samples.

Results

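MALAT1 and NEAT1 are neighbouring genes of long non-coding RNAs (lncRNAs) that stay in the nucleus. Every transcript row that the lncRNA table of the series gives the name MALAT1 or NEAT1 was taken, which are 17 rows of MALAT1 and 5 of NEAT1 among 54708 rows, together with the circRNAs of both genes, 1 of MALAT1 and 0 of NEAT1 among 3840. Total RNA without its ribosomal RNA was sequenced from parental A549 and HCC827 cells, established lines of human lung adenocarcinoma, and from their resistant derivatives A549/DDP (made with rising doses of cisplatin, a DNA-crosslinking drug) and HCC827/GR (made with rising doses of gefitinib, which blocks the kinase EGFR). The labels name the derivatives A549/R and HCC827/R and call both cisplatin-resistant, whereas the methods of the study give gefitinib for HCC827/GR, and that drug is used here. The drugs were withdrawn before the RNA was taken, and each derivative is a single line. There was 1 library per condition, so replicate spread is unknown, no test was run, and every difference is one between single libraries. A pair below means a parent and its derivative, with the value of the parent given first.

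MALAT1 is among the most abundant nuclear RNAs. It gathers at nuclear speckles, the stores of splicing factors, and its name (metastasis-associated lung adenocarcinoma transcript) comes from lung tumours. Ribonuclease P cuts its 3′ end, releasing a small tRNA-like RNA, and the end left behind is protected by a triple helix instead of a poly(A) tail. NEAT1 is the scaffold of paraspeckles, nuclear bodies that hold the proteins SFPQ, NONO and PSPC1. Its short form ends early in a poly(A) tail, and its long form, cut by ribonuclease P like MALAT1, is the one that builds the paraspeckle.

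In the coordinates of the files, NEAT1 lay on chromosome 11 from 65422774 to 65445540 and MALAT1 from 65497762 to 65506516, both on the plus strand. The sources used here do not name the build of the files. The full-length NEAT1 row, ENST00000501122, had the same first and last base (65422798 and 65445540) as RefSeq NEAT1 on GRCh38.p14. RefSeq gives MALAT1 a pair of starts, 1307 bases apart, and the rows of the table divided between them. Of the 17 rows, 2 began within 100 bases of the upstream start, 4 within 100 bases of the downstream start, and 11 inside the gene. Because the sums of these groups differed between the libraries, the 300 bases around each start are shown (RefSeq, GRCh38.p14, plus strand, 250 bases before the start and 50 after it). No such window was found for NEAT1. Capitals mark matches on either strand to TATAAA, the core of a TATA box, and to GGGCGG, a GC box. A search for CCAAT found none in either window.
MALAT1 upstream start, chr11:65497488-65497787: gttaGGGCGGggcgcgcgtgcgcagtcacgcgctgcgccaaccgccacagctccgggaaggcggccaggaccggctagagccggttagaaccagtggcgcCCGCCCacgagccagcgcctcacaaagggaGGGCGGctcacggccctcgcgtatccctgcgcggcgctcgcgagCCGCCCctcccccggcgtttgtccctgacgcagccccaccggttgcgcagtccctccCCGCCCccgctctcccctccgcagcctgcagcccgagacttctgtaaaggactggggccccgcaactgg
MALAT1 downstream start, chr11:65498795-65499094: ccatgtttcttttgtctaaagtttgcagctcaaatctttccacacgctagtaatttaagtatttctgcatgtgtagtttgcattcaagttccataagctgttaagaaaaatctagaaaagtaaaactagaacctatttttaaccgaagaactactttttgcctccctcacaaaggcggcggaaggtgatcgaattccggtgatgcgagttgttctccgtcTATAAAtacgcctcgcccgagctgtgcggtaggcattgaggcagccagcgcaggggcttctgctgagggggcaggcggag

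The window of the upstream start was 73.7% G and C with 37 CpG pairs, and held GGGCGG 2 times on the plus strand and 3 times on the minus strand. The window of the downstream start was 46.0% G and C with 14 CpG pairs, and held 1 TATAAA, whose first base lay 30 bases before the start. Of 35116 windows of this length, 45.0% held GGGCGG, 11.5% held TATAAA and 34.6% held CCAAT on either strand, and the median window had 58.7% G and C and 14 CpG pairs. The matches describe the letters and are no evidence of a factor at work.

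The levels below are bases per megabase aligned, which is the mean coverage of a row times its length, divided by the aligned megabases of the library. Unlike FPKM, the deposited level per kilobase of transcript, these bases can be summed over overlapping rows of different length. The libraries had 4.34 to 5.24 gigabases aligned, and 302 bases were counted as 1 read pair. HCC827/GR stood apart, with 7807 rows of the whole table above 0 FPKM, against 23807 to 29256 in the other libraries. Circular RNAs of EGFR, which is amplified in HCC827, had 136 and 190 counts in A549 and A549/DDP, and 814 and 1185 in HCC827 and HCC827/GR. CDKN2B-AS1, near a locus that A549 lacks, had 0 and 0.199 bases per megabase in A549 and A549/DDP, and 19.5 and 12.1 in HCC827 and HCC827/GR. MIR31HG, from the same region, went against this, with 6.88 then 3.07 in the A549 pair and 1.13 then 0 in the HCC827 pair.

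Both loci were low in A549/DDP and not in HCC827/GR. All rows of MALAT1 together held 1703 bases per megabase in A549 (24481 read pairs, 95% exact Poisson interval 1681 to 1724). The sum was 520 in A549/DDP (7954 read pairs, 508 to 531). It was 2257 in HCC827 (39161 read pairs, 2235 to 2280) and 2858 in HCC827/GR (42069 read pairs, 2831 to 2885). The order was thus A549/DDP, A549, HCC827 and HCC827/GR, and no neighbours in it overlapped in counting error. These intervals cover counting error only, which is not the spread between cultures, and in bulk RNA fewer expressing cells and less RNA per cell cannot be told apart. The ratio of A549/DDP to A549 was 0.305 (exact conditional interval 0.297 to 0.313), and that of HCC827/GR to HCC827 was 1.27 (1.25 to 1.28). HCC827 was at 1.33 times A549 (1.30 to 1.35), but at 0.732 times as a share of all bases of the lncRNA table, so the order of the parents depends on the scaling.

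All rows of NEAT1 together held 183 bases per megabase in A549 (2632 read pairs, 176 to 190), and 37.6 in A549/DDP (576 read pairs, 34.6 to 40.8). They held 187 in HCC827 (3239 read pairs, 180 to 193) and 205 in HCC827/GR (3017 read pairs, 198 to 212). A549/DDP was the low library, at 0.206 times A549 (0.187 to 0.225), while HCC827/GR was at 1.10 times HCC827 (1.04 to 1.15). The parents, at a ratio of 1.02 (HCC827 to A549, 0.968 to 1.07), overlapped in counting error on this scale. As a share of all bases of the lncRNA table the ratio was 0.563, over annotated rows alone 0.540, and by summed FPKM 1.41, so their order too depends on the scaling. Per kilobase of gene, MALAT1 was 24.1 times higher than NEAT1 in A549, 35.8 times in A549/DDP, 31.3 times in HCC827 and 36.1 times in HCC827/GR, on the scale of bases per megabase aligned. Among 3164 lncRNA genes with an annotated row at 1 FPKM or more, MALAT1 ranked 1 by its bases in A549, HCC827 and HCC827/GR and 3 in A549/DDP, and NEAT1 ranked 7 then 48 in the A549 pair and 10 then 12 in the HCC827 pair.

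**Figure D1:**
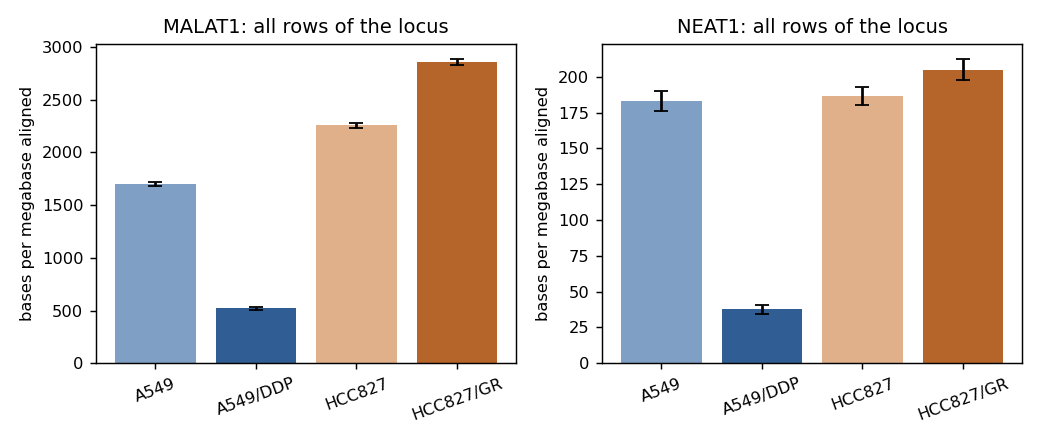
Bases per megabase aligned on all rows of MALAT1 (left) and NEAT1 (right) in the 4 libraries, 1 per condition, with 95% exact Poisson intervals that cover counting error only. A549/DDP is the low library at both loci, at 520 for MALAT1 and 37.6 for NEAT1.

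Set against the other lncRNA genes at 1 base per megabase or more in either library of a pair, with 1 base per megabase added, both loci were past 2-fold lower in A549/DDP, as were 14.2% of 1723 genes (12.7% were higher), and MALAT1 had 4.24% of the genes below its ratio and NEAT1 2.15%. In HCC827/GR neither locus passed 2-fold, while 45.8% of 2373 genes were lower and 28.5% higher. There MALAT1 had 61.7% of the genes below its ratio and NEAT1 58.8%, and the median ratio of the 2373 genes was 0.685. Annotated lncRNA genes at 1 base per megabase or more in both libraries had a median ratio of 0.951 in A549/DDP and 1.40 in HCC827/GR (log2 -0.07 and 0.49). Relative to that median, HCC827/GR was at 0.902 times HCC827 for MALAT1 and at 0.782 times for NEAT1, so the direction of both small differences depends on the scaling. In A549/DDP the same rescaling gave 0.321 and 0.216.

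One row led MALAT1 in both parents, and other rows led it in the resistant libraries. ENST00000618132, an annotated row of 725 bases in 2 exons near the 3′ end (6267 bases past the gene start), had 1878 then 134 FPKM in the A549 pair, and fell from 2103 in HCC827 to a listed 0 in HCC827/GR. Its share of the bases of the locus was 80.0% then 18.7% in the A549 pair and 67.5% in HCC827. MSTRG.16341.4, an unannotated splice form of 5040 bases in 4 exons (class code j, which marks a row that shares a splice junction with an annotated one), was listed at 0 in both A549 libraries and had 71.0 then 429 FPKM in the HCC827 pair. It held 15.9% of the locus in HCC827 and 75.7% in HCC827/GR. The row that led the locus in HCC827 was thus listed at 0 in HCC827/GR, where a longer row took its place.

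MSTRG.16341.6, the other unannotated splice form (5349 bases, 3 exons), was above 0 in all 4 libraries, with 40.7 then 65.6 FPKM in the A549 pair and 40.7 then 98.8 in the HCC827 pair. It was higher in both resistant lines, 1.61-fold (1.54 to 1.68) in A549/DDP and 2.42-fold (2.33 to 2.52) in HCC827/GR, and held 67.5% of the locus in A549/DDP. ENST00000534336, the full-length row of 1 exon and 8708 bases, had 4.63 then 3.61 FPKM in the A549 pair and 3.80 then 13.3 in the HCC827 pair. It was 0.781 times A549 in A549/DDP (0.691 to 0.884) and 3.51 times HCC827 in HCC827/GR (3.19 to 3.86). ENST00000508832, a spliced row in the middle of the gene, had 22.7 then 13.5 FPKM in the A549 pair and 29.9 then 13.8 in the HCC827 pair, so that both resistant libraries were below their parents.

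**Figure D2:**
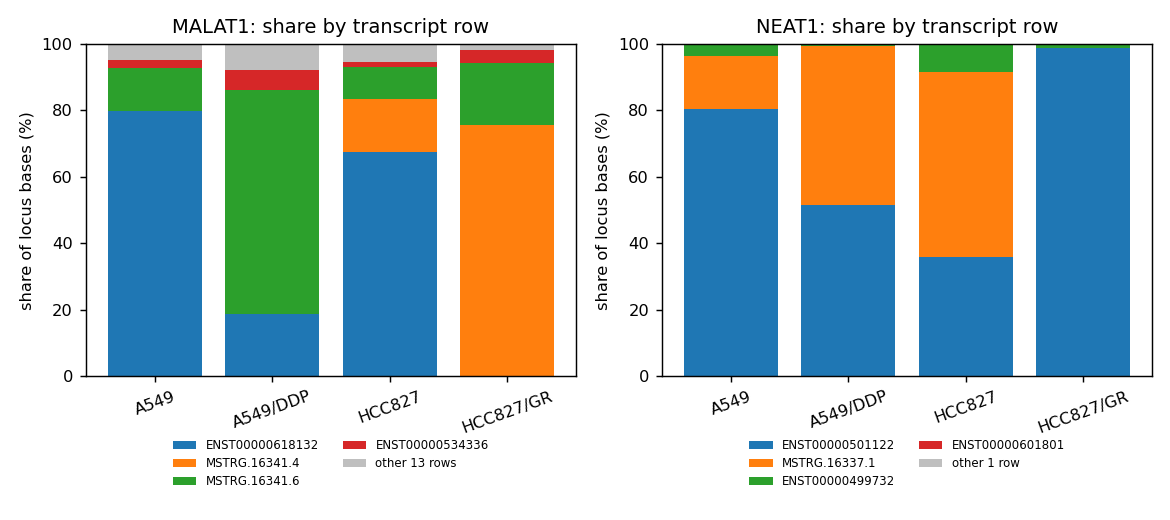
Share of the bases of each locus (percent) by transcript row in the 4 libraries, with the 4 largest rows of each gene in colour and the rest in grey. ENST00000618132 fills 80.0% of MALAT1 in A549 and none of it in HCC827/GR, and ENST00000501122 fills 98.8% of NEAT1 in HCC827/GR.

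The fall of the MALAT1 total in A549/DDP rests on 1 row. Without ENST00000618132, chosen after its values were seen, the remaining 16 rows of MALAT1 were 1.24 times A549 in A549/DDP and 3.90 times HCC827 in HCC827/GR. The mean coverage of this row was 46.1 times that of MSTRG.16341.6 in A549 and 51.6 times in HCC827, against 2.04 times in A549/DDP. The sum of the 3 rows that span the gene (at least 7 kb) went from 258 to 382 bases per megabase in A549/DDP, 1.48-fold (1.42 to 1.54), and from 609 to 2809 in HCC827/GR, 4.61-fold (4.51 to 4.71). In A549/DDP only 1 of the 3, MSTRG.16341.6, was above the parent, and in HCC827/GR all 3 were. The sum of the other 14 rows, each with a span of under 7 kb, went the other way, from 1444 to 137 and from 1648 to 49.3 bases per megabase. Of the 14, 2 were above the parent in A549/DDP and 3 in HCC827/GR. Leaving out ENST00000618132, the other 13 short rows together were at 0.487 times A549 in A549/DDP and 0.399 times HCC827 in HCC827/GR. How StringTie divided reads among overlapping rows was not tested, and the share of each row is the estimate of that program.

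The 2 rows at the upstream start together held 40.3 then 31.5 bases per megabase in the A549 pair and 391 then 2280 in the HCC827 pair. That is 2.37%, 6.06%, 17.3% and 79.8% of the locus in the same order, and the 2 HCC827 libraries lay above both A549 libraries. This was the pattern of MSTRG.16341.4, since the other row, ENST00000534336, held 40.3 then 31.5 bases per megabase in the A549 pair and 33.1 then 116 in the HCC827 pair. The 4 rows at the downstream start, the one with the TATAAA match, summed to 226 then 356 bases per megabase in the A549 pair and 259 then 540 in the HCC827 pair. The rise of this sum was that of MSTRG.16341.6, and the other 3 rows were below the parent in both resistant libraries. The sum of the 11 rows that begin inside the gene, mostly ENST00000618132 outside HCC827/GR, went from 1436 to 132 bases per megabase in the A549 pair and from 1607 to 37.9 in the HCC827 pair. Of these rows, 9 were below the parent and 2 above it in A549/DDP, and 8 below and 3 above in HCC827/GR. A full-length row crosses both starts, so these groups say where rows begin and not where each read began.

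The 6 rows within the last stretch of the gene, from the start of ENST00000618132 to the 3′ end, held 81.8% then 20.5% of the locus in the A549 pair and 68.8% then 0.266% in the HCC827 pair. The study picked out 3 of these rows from the same libraries, and the direction of these is therefore no independent evidence. ENST00000610851 had 12.2 then 3.83 FPKM in the A549 pair and 25.4 then 1.13 in the HCC827 pair. ENST00000616691 had 22.5 then 5.54 FPKM in the A549 pair and 5.16 in HCC827, and was listed at 0 in HCC827/GR. ENST00000618132, described above, is the other. The 5 rows of this stretch other than ENST00000618132 summed to 31.2 then 9.74 bases per megabase in the A549 pair and 28.7 then 7.59 in the HCC827 pair, far below the sums of the 3 gene-wide rows.

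**Figure D3:**
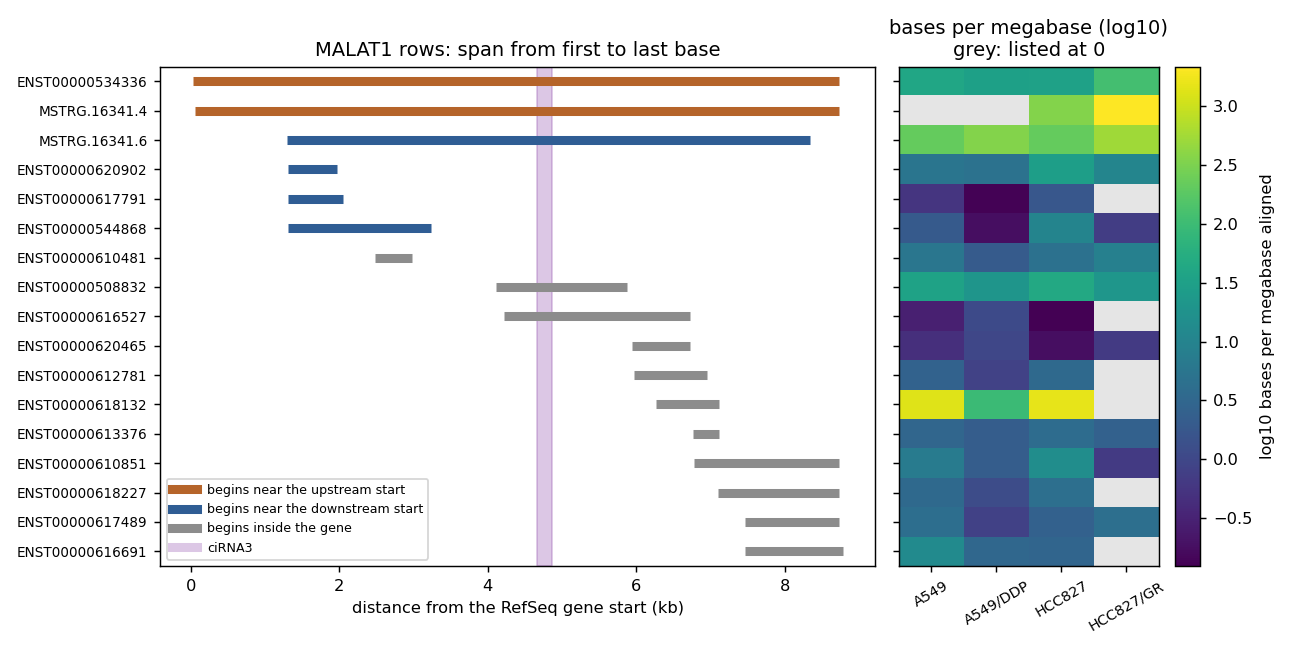
Left, the span of each of the 17 MALAT1 rows by distance from the RefSeq gene start in kb (exons are not drawn), coloured by where the row begins, with the circular ciRNA3 as a band. Right, log10 of the bases per megabase aligned of each row in the 4 libraries, grey where a row is listed at 0. ENST00000618132 is the brightest row in A549 and HCC827, and MSTRG.16341.4 in HCC827/GR.

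Counting rows rather than bases gave another picture. With 0.1 FPKM added to both libraries and a minimum of 0.1 FPKM in either, 9 of 16 MALAT1 rows tested were past 2-fold lower in A549/DDP and 2 were past 2-fold higher, where 38.4% of 8007 annotated rows of the table were lower and 24.4% higher (37.2% and 45.7% of all 34809 rows). In HCC827/GR, 10 of 17 MALAT1 rows were lower and 4 higher, where 73% of 5578 annotated rows were lower and 18% higher (78.4% and 18.4% of all 32851 rows). The median fold of the MALAT1 rows was 0.358 in A549/DDP (all annotated rows 0.771) and 0.368 in HCC827/GR (all annotated rows 0.182). In HCC827/GR, 6 of the 17 rows were listed at 0, against 0 in HCC827 and 1 in each A549 library, and all 6 were among the 10 lower rows. Of the 16 rows tested in both pairs, 7 were lower in both resistant lines and 1 was higher in both (ENST00000620465, with at most 15.2 read pairs in a library). Of 4047 annotated rows tested in both pairs, 23.2% were lower in both and 4% higher in both, and of all 14754 such rows 27.3% and 6.56%. Above 0 in all libraries were 10 of the 17 rows. The other row higher in A549/DDP, ENST00000616527, was lower in HCC827/GR, with at most 16.8 read pairs in a library. The 10 MALAT1 rows not described one by one held from 0 to 505 read pairs each in a library.

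The choice of unit decided the direction of MALAT1 in HCC827/GR. Summed as FPKM, where a base on a short row weighs more than a base on a long one, MALAT1 was 2461 in HCC827 and 648 in HCC827/GR, a ratio of 0.263, against 1.27 for bases. In the A549 pair the FPKM sums were 2075 and 276, a ratio of 0.133. The annotated rows alone, without the 2 splice forms of class code j, gave 0.0984 in HCC827/GR and 0.114 in A549/DDP.

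Most bases of NEAT1 were assigned to its long rows. ENST00000501122, the unspliced row of 22743 bases, had 6.48 then 0.851 FPKM in the A549 pair and 2.96 then 8.90 in the HCC827 pair. It was 0.131 times A549 in A549/DDP (0.116 to 0.148) and 3.01 times HCC827 in HCC827/GR (2.81 to 3.22). MSTRG.16337.1, an unannotated row of 21998 bases in 3 exons over nearly the same span, had 1.33 then 0.822 FPKM in the A549 pair and 4.71 in HCC827, and was listed at 0 in HCC827/GR. Its class code, u, stands for intergenic, although it overlaps the annotated gene. The 2 rows together held 96.4% then 99.4% of the NEAT1 bases in the A549 pair and 91.5% then 98.8% in the HCC827 pair. No other unspliced row of NEAT1 was listed, so reads of an unspliced short form had no row of their own. The share of the long rows is therefore no measure of the long form.

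Summing the 2 long rows removed most of the difference in HCC827/GR that each showed alone. Their sum was 176 bases per megabase in A549 and 37.4 in A549/DDP, a ratio of 0.212 (0.193 to 0.232). It was 171 in HCC827 and 203 in HCC827/GR, a ratio of 1.19 (1.13 to 1.25). Without ENST00000501122, chosen after its values were seen, NEAT1 was at 0.512 times A549 in A549/DDP, still below the parent, and at 0.0203 times HCC827 in HCC827/GR.

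The 3 short rows of NEAT1 all lie within the first 2054 bases of the locus. The largest, ENST00000499732, of 1811 bases in 2 exons, had 3.54 then 0.0967 FPKM in the A549 pair and 8.69 then 1.34 in the HCC827 pair. Both resistant libraries were below their parents, at 0.0273 times A549 on 2.68 read pairs in A549/DDP (counting interval 0.00620 to 0.0923) and at 0.154 times HCC827 on 35.7 read pairs in HCC827/GR. ENST00000601801 stayed at 2.37 read pairs or fewer in every library, and ENST00000612303 was above 0 only in A549, with 0.605 read pairs. Of the 4 NEAT1 rows tested in each pair, 3 were past 2-fold lower and 0 higher in A549/DDP, and 3 lower and 1 higher in HCC827/GR. Among annotated rows, 38.4% were lower in A549/DDP and 73% in HCC827/GR, so the count in HCC827/GR is near that of the table. The median fold of the NEAT1 rows was 0.294 in A549/DDP and 0.278 in HCC827/GR, where all annotated rows had 0.771 and 0.182. No row of the table begins past these short rows, so reads of the short and the long form over their shared 5′ end could not be separated.

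A circular RNA of MALAT1 was listed with estimated counts of its own. ciRNA3 is a circular intronic RNA, a kind that arises from the lariat of a spliced intron, and covers 204 bases of chromosome 11 from 65502394 to 65502597. It begins at the first base of a 243-base intron of ENST00000508832 and ends 39 bases before the 3′ end of that intron. Its estimated counts were 1135 then 585 in the A549 pair and 2017 then 2866 in the HCC827 pair. Scaled to 1000000 circRNA counts per library (CPM) these were 645 (608 to 683), 298 (275 to 324), 961 (920 to 1004) and 1805 (1740 to 1872). A549/DDP was again the low library and HCC827/GR the high one, the order of the MALAT1 totals.

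Scaled to all circRNA counts, ciRNA3 was at 0.463 times A549 in A549/DDP (0.418 to 0.512), past 2-fold lower as were 7.54% of 3822 circRNAs and 20% of 45 circular intronic RNAs. In the other direction, 3.11% and 4.44% of these passed. It was at 1.88 times HCC827 in HCC827/GR (1.77 to 1.99), just short of 2-fold, where 13% of 3771 circRNAs were past 2-fold higher and 32.1% lower, and 16.2% of 37 circular intronic RNAs were higher and 59.5% lower. The median circular intronic RNA was at 0.284 times HCC827 there and at 0.888 times A549 in A549/DDP. Among the circular intronic RNAs, ciRNA3 ranked 4 then 5 in the A549 pair and 3 then 2 in the HCC827 pair by its counts. Set against the linear rows, ciRNA3 had 46.4 then 73.5 counts per 1000 read pairs of MALAT1 in the A549 pair. It had 51.5 then 68.1 in the HCC827 pair, so both resistant libraries were above their parents on this scale. That direction rests on ENST00000618132, which begins past ciRNA3 and held 80.0% of the locus in A549 and 67.5% in HCC827. Per megabase aligned, the other rows of MALAT1 together were at 1.24 times A549 in A549/DDP and 3.90 times HCC827 in HCC827/GR. On that scale ciRNA3 was at 0.484 and 1.67 times, so against those rows both resistant libraries were below their parents. In A549/DDP the counts of ciRNA3 fell, and the read pairs of MALAT1 fell further, from 24481 to 7954. ENST00000618132 alone went from 19576 to 1485 read pairs, a larger fall than that of the locus, and the other rows together rose. The spliced row with the same intron, ENST00000508832, did not follow ciRNA3 in HCC827/GR, where this row held 20.97 bases per megabase against 45.5 in HCC827. The sources used here do not name the tool behind the circRNA counts. The unspliced row ENST00000534336 spans the bases of ciRNA3, and whether reads of linear MALAT1 entered its counts was not tested.

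**Figure D4:**
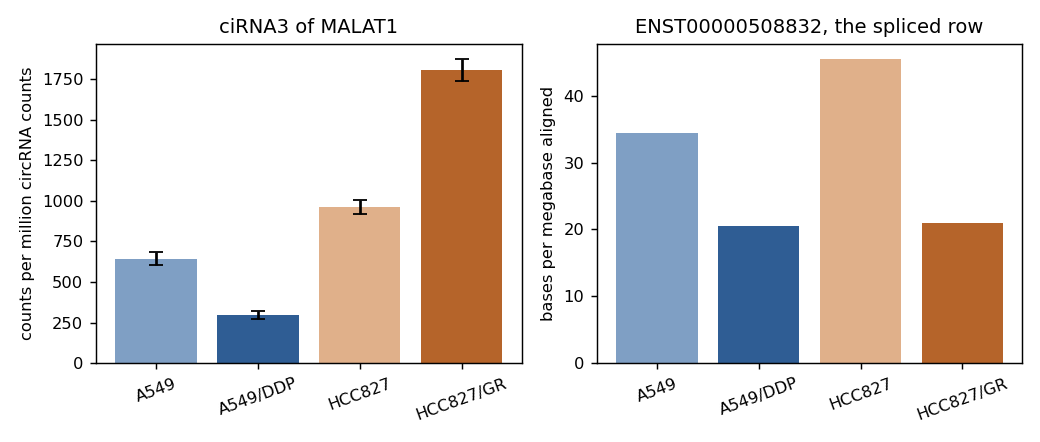
Left, ciRNA3 of MALAT1 in CPM, with 95% exact Poisson intervals for counting error. Right, ENST00000508832, the linear row spliced at the same intron, in bases per megabase aligned. In HCC827/GR the circular RNA is highest, at 1805, while the spliced row is at 20.97.

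The level patterns of the genes most like MALAT1 and NEAT1 were compared as log2 of bases per megabase plus 1, centred on the mean of the 4 libraries, by Euclidean distance over 3164 lncRNA genes. For NEAT1 the nearest gene was MALAT1 itself (distance 0.46), followed by USP46-AS1 (0.47) and RP11-640N20.4 (0.58). For MALAT1 the nearest were CTD-2574D22.2 (0.36), RP11-166D19.1 (0.39) and LA16c-390E6.5 (0.40), and NEAT1 came at rank 5. RP11-166D19.1 held 16.1 then 6.28 bases per megabase in the A549 pair and 30.1 then 35.8 in the HCC827 pair. These likenesses describe 4 libraries.

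Of 14 other lncRNAs listed for comparison, 11 had annotated rows. Where each of them lies in the cell was not measured. In A549/DDP, 1 of these was past 2-fold lower (MEG3, an imprinted lncRNA), 2 were higher (FIRRE and DANCR), 7 were between and 1 was listed at 0 in both libraries. In HCC827/GR, 5 were lower (MIAT, KCNQ1OT1, PVT1, OIP5-AS1 and DANCR), 2 higher and 3 between, and 1 was listed at 0 in both. The 2 higher genes were TUG1 and RMRP, the RNA of a ribonuclease, listed at 0 except in HCC827/GR, where it held 636 bases per megabase. Of all lncRNA genes, 14.2% were lower and 12.7% higher in A549/DDP, and 45.8% lower and 28.5% higher in HCC827/GR, so the counts of lower genes on the list were near those of the table. With 1 base per megabase added, the median ratio of the list was 1.34 in A549/DDP and 0.529 in HCC827/GR, where all lncRNA genes had 0.959 and 0.685. OIP5-AS1, an abundant lncRNA known to bind microRNAs and RNA-binding proteins, held 232 then 190 bases per megabase in the A549 pair and 236 then 107 in the HCC827 pair. TUG1, a nuclear lncRNA that binds chromatin regulators, held 29.5, 39.7, 31.1 and 72.2 bases per megabase in the same order. KCNQ1OT1, the imprinted antisense RNA, held 70.1, 50.6, 37.3 and 15.8.

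The mRNAs of speckle and paraspeckle proteins were not analysed here, but circRNAs of some of these genes were counted. Of 41 listed gene names of paraspeckle proteins, 8 had circRNAs, and 0 of them passed 2-fold in either direction in either pair, where 2.96% of 2266 host genes were higher and 8.47% lower in A549/DDP and 13.1% of 2223 higher and 30% lower in HCC827/GR. Their median ratio was 1.17 in A549/DDP and 1.14 in HCC827/GR, where all hosts had 1.02 and 0.846. SFPQ and NONO had no circRNAs listed. PSPC1, a core paraspeckle protein, had 380 then 693 circRNA counts in the A549 pair and 732 then 1049 in the HCC827 pair. Of 36 listed genes of nuclear speckle proteins, 10 had circRNAs, with a median ratio of 1.22 in A549/DDP and 0.922 in HCC827/GR. RBM25, a splicing factor, was the only one of these 10 past 2-fold, with 194 then 287 counts in the A549 pair and 261 then 0 in the HCC827 pair. SON, the scaffold protein of nuclear speckles, had 2824 then 3116 CPM in the A549 pair and 3922 then 4220 in the HCC827 pair. Rescaled to the median ratio of all hosts, 5 genes of both lists together passed 2-fold in HCC827/GR and 0 in A549/DDP. RBM25 was lower, and PSPC1, SMARCA4 and HNRNPK of the paraspeckle list and CDK12 of the speckle list were higher. Before rescaling these higher genes were at 1.89, 1.90, 1.74 and 1.70 times HCC827. The share of all hosts past 2-fold on the rescaled values was not computed. The calls in HCC827/GR thus depend on the scaling.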

How the data were processed

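The lncRNA table gives, for each transcript row, the authors' StringTie FPKM and mean coverage (a signal per base), position, number of exons, length and class code, and scores of coding potential that the authors computed with the Coding Potential Calculator and the Coding-Non-Coding Index and that were not used here. Per the paper, the authors trimmed reads with Cutadapt, mapped them (Bowtie 2, TopHat2), and built transcripts per library in StringTie before merging. TopHat is named in the submitters' processing notes. The sources used here name no versions or build. The deposited circRNA table holds estimated counts and FPKM, and its counts were used unrounded for ratios and rounded for intervals. Coverage divided by FPKM was constant in each library and gave the aligned bases. Coverage times length gave the bases of a row, and 302 bases, the commonest value among annotated rows of 1 exon, were taken as 1 read pair.

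The fold limits, 2 and 0.5, are those of the methods. Their P value was not repeated, since each condition had 1 library. Intervals are exact Poisson or conditional Poisson at 95%. A floor of 3 counts was added for folds of circRNAs, except for ciRNA3 itself. The members and lists were chosen with earlier results of these data known. Named rows are the 5 of each gene with the most bases, rows named in the paper and every circRNA of the genes, and other rows were chosen with values in view. The RefSeq starts, the gene-wide rows and the stretch at the 3′ end were also chosen afterwards. The binned profile and the count of rows past the short NEAT1 form were not run, because most rows have introns at unknown places and no row begins there. Fold calls were tried on simulated read pairs drawn for each row apart, which leaves out the division of reads among overlapping rows. The simulated locus sum had its total fixed beforehand, so it checks the arithmetic only. The work used scipy 1.17.1 and numpy 2.4.6 for intervals, pandas 2.3.3 for tables and matplotlib 3.10.9 for plots, under Python 3.11.15.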

Additional observations from a re-analysis of the deposited data

Results flagged for a closer look

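Several values moved in opposite directions in the A549 and HCC827 pairs. None of these differences between the pairs was tested, since each condition had 1 library. Against its parent, A549/DDP was at 0.305 for the MALAT1 total, while HCC827/GR was at 1.27. For the NEAT1 total the ratios were 0.206 and 1.10. In HCC827/GR both totals fall under their parent when rescaled to the median of annotated lncRNA genes present in both libraries (0.902 and 0.782). Over the 2373 genes present in either library the median ratio was lower, at 0.685, and both totals lay above it. The circular ciRNA3 of MALAT1 was at 0.463 and 1.88 times its parent. ENST00000501122, the unspliced NEAT1 row, was at 0.131 and 3.01 times, and ENST00000534336, the unspliced MALAT1 row, at 0.781 and 3.51 times.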

How the results depend on the processing

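With 1 library per condition, every value rests on a single culture, and depth (4.34 to 5.24 gigabases) limits only the small rows. No paired analysis was possible because each group has 1 sample. The cause of the shifts below was not tested beyond what each setting leaves out. As a share of all bases of the lncRNA table, HCC827/GR was at 0.928 times HCC827 for MALAT1 and 0.804 for NEAT1, and HCC827 at 0.732 and 0.563 times A549. Rescaled to the median of annotated lncRNA genes present in both libraries, MALAT1 was at 0.321 in A549/DDP. On that scale MALAT1 and NEAT1 were at 0.902 and 0.782 in HCC827/GR. With annotated rows alone, MALAT1 was at 0.114 for A549/DDP, 0.0984 for HCC827/GR and 1.13 for HCC827 against A549, and NEAT1 at 0.127, 2.47 and 0.540. With rows of 1 exon alone, MALAT1 was at 0.781 for A549/DDP and 3.51 for HCC827/GR, and NEAT1 at 0.131 and 3.01. The largest row of the parent alone was at 0.0712 in A549/DDP and 0 in HCC827/GR for MALAT1, and at 0.131 and 0 for NEAT1. Sums of FPKM gave 0.133 and 0.263 for MALAT1, 0.159 and 0.620 for NEAT1, and 1.19 and 1.41 for the parents. The FPKM sums of the parents were not planned.

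The following alternatives for the locus totals and ciRNA3 were chosen after seeing the data. Without its largest row, MALAT1 was at 1.24 in A549/DDP, turning its direction, at 3.90 in HCC827/GR and at 2.15 in HCC827 against A549, and NEAT1 at 0.512, 0.0203 and 3.34. With gene-wide rows alone, MALAT1 was at 1.48 in A549/DDP, also turned, and 4.61 in HCC827/GR, and NEAT1 at 1.19 in HCC827/GR. Per 1000 read pairs of the locus, ciRNA3 was at 1.59 in A549/DDP, turned, and 1.32 in HCC827/GR, and per megabase aligned at 1.67 in HCC827/GR. In the parents most of those read pairs were on ENST00000618132, which begins past ciRNA3. The settings for pseudocount, offset and circRNA hosts were planned. A pseudocount of 1 FPKM left 0 of the 2 member rows higher in A549/DDP. An offset of 0.1 base per megabase gave 381 lncRNA genes lower in A549/DDP, against 244. Rescaling circRNA hosts to their median put 5 speckle or paraspeckle genes past 2-fold in HCC827/GR, against 1. All of these but RBM25 were higher, and the share of all hosts on that scale was not computed. The other settings moved counts of calls by 1.5 times or less.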

Other observations

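Rows of other names within 100 kb of either gene numbered 13, and 1 of them overlapped MALAT1. That row, AP000769.7 (1 exon, 396 bases, minus strand), begins 272 bases past the upstream MALAT1 start and lies before the downstream start. It held 5.25 then 3 read pairs in the A549 pair and 40.3 then 62.7 in the HCC827 pair, so that both HCC827 libraries were above both A549 libraries. The sum of the MALAT1 rows at the upstream start had the same order by pair, through MSTRG.16341.4 and not ENST00000534336. The sources used here do not say whether counting used the strand, and reads of this row and of MALAT1 cannot be told apart without it. All 13 rows together held 54.4 then 7.38 bases per megabase in the A549 pair and 25.1 then 26.1 in the HCC827 pair. The row with the most read pairs was MSTRG.16352.1, an unannotated row of 26 exons over LTBP3, the gene of a protein that binds latent TGF-beta, with 692 then 39.6 read pairs in the A549 pair and 326 then 238 in the HCC827 pair. In bases per megabase it held 48.1 then 2.59 in the A549 pair and 18.8 then 16.2 in the HCC827 pair. The fall of the sum of the 13 rows in A549/DDP was thus mostly that of this 1 row. Like MALAT1 and NEAT1, it was lowest in A549/DDP. Reads of the LTBP3 mRNA were not separated from it here.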
